A study of Mus musculus with 15 samples.

Results

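Sox2, Nes, Hes1, Hes5, Notch1, Fabp7, Vim, Pax6 and Dcx, a set of 9 neural progenitor and Notch genes, were followed in all 15 brainstem RNA-seq libraries of the study. They were taken by symbol from the 57180 Ensembl gene identifiers of the deposited count tables, of which 51884 were matched to a symbol. All 9 were found in both tables and passed the filter on low counts in every comparison. The mice were C57BL/6, and polyA RNA of the brainstem was sequenced from groups of 3 libraries each. In the first experiment, AMPK+/+ was compared with AMPK-/-, which the study's methods describe as mice lacking the α2 catalytic subunit of AMP-activated protein kinase (AMPK), an energy-sensing kinase, beside their WT littermates. In the second, LMX1B+/+, LMX1B+/- and LMX1B-/- were compared. Lmx1b is a LIM homeobox transcription factor of hindbrain patterning and serotonergic neurons, and the study collected these brainstems before birth. Loss of both copies is lethal to the embryo, per the study. No added agent or transgene is listed for any library.

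Neural progenitors line the ventricles as radial glia, which hold the filament proteins nestin and vimentin and the fatty acid-binding protein Fabp7, and which are kept undifferentiated by transcription factors such as Sox2 and Pax6. Notch signalling works between neighbouring cells: a ligand of the Delta or Jagged type on one cell binds a Notch receptor on the next, the receptor is cut by ADAM proteases and γ-secretase, and its released domain joins RBPJ and a Mastermind protein in the nucleus to switch on repressors such as Hes1 and Hes5. A cell that leaves this state becomes a migrating young neuron, which makes the microtubule-binding protein doublecortin (Dcx).

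The promoter sequences of 4 members are shown because they are the genes on which the results below turn: Hes5 as the direct Notch target, Dcx as the young-neuron gene, and Fabp7 and Notch1 as members that differed between genotypes. Each is the stretch of 250 bases just before the start of transcription in RefSeq (GRCm38.p6, an older build than the GRCm39 named in the submitters' processing notes), written 5′ to 3′ on the gene's strand. Capitals mark GTGGGAA, the core letters of RBPJ binding, or TAATTA, the core letters bound by LIM homeobox proteins, found on either strand.
Hes5 promoter, chr4:154960673-154960922, plus strand: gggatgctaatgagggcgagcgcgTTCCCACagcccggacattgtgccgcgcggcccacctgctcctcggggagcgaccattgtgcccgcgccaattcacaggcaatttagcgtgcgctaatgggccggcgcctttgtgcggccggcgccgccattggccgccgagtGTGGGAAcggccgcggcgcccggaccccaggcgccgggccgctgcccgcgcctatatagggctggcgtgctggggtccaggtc
Dcx promoter, chrX:143933220-143933469, minus strand: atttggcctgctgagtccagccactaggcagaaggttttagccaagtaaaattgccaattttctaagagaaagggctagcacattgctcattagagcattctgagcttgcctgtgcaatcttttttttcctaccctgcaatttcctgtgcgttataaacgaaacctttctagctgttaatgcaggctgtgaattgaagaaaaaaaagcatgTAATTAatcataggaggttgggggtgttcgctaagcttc
Fabp7 promoter, chr10:57784673-57784922, plus strand: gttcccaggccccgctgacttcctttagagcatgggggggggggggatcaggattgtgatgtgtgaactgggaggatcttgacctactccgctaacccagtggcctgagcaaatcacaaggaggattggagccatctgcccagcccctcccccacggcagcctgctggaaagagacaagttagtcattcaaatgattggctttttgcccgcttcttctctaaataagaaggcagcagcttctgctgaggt
Notch1 promoter, chr2:26503823-26504072, minus strand: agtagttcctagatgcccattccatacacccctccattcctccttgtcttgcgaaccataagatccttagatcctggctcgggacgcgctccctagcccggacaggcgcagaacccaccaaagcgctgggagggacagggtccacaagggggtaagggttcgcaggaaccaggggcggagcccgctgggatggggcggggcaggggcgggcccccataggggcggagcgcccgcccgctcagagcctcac
In Hes5, GTGGGAA occurred 83 bases before the start, and again on the other strand, read as TTCCCAC, 226 bases before it. Of 32851 mouse promoter windows of 300 bases, 6.38% held GTGGGAA on either strand and 5.29% held TAATTA. The Dcx stretch held 1 TAATTA, at 39 bases before the start, and the window of a 2nd Dcx start held 1 at 134 bases before that start. Neither set of letters was in the windows of Sox2, Nes, Notch1, Fabp7, Vim or Pax6, which says nothing of the factors themselves. Hes1 had no window in the promoter set used, so it was not searched.

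The LMX1B libraries held 28833130 to 37441679 counts each. In the AMPK table, AMPK+/+ 2 held 291212 and AMPK-/- 3 held 335986, whereas the other libraries held 14975095 to 17384171. A gene with 0 counts could therefore still be at up to 9.98 CPM (counts scaled to 1000000 per library after TMM, edgeR's correction for differences in library make-up) in AMPK+/+ 2 and 9.07 CPM in AMPK-/- 3, where the limit of 3 counts was 0.0676 to 0.198 CPM in the others. Lmx1b was at 22.5, 16.0 and 9.73 CPM in LMX1B+/+ and at 1.45, 1.13 and 0.848 CPM in LMX1B-/-, but at 30.5, 11.9 and 14.3 CPM in LMX1B+/-, where its level was not lower (log2 fold change 0.23, edgeR quasi-likelihood test with Benjamini-Hochberg adjustment, adjusted p = 0.618). Prkaa2, which encodes AMPKα2, was at 21.9, 26.6 and 29.7 CPM in AMPK+/+ and at 25.4, 22.3 and 12.1 CPM in AMPK-/- as labelled, so the groups overlapped and each direction given for AMPK-/- is one between labels. Lmx1b was at 18.8, 13.3 and 13.5 CPM in AMPK+/+ and at 2.84, 9.65 and 6.04 CPM in AMPK-/-, without overlap (log2 fold change -1.35, SE 0.37, edgeR adjusted p = 0.0233). Its 13.3 CPM in AMPK+/+ 2 came from 4 counts and its 6.04 CPM in AMPK-/- 3 from 2 counts, and 26.6% of all genes had no overlap there. As a check of the tissue, 10 hindbrain Hox genes were tested in both experiments and summed to 55.6 to 219 CPM in the AMPK libraries and 146 to 668 CPM in the LMX1B libraries.

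**Figure D1:**
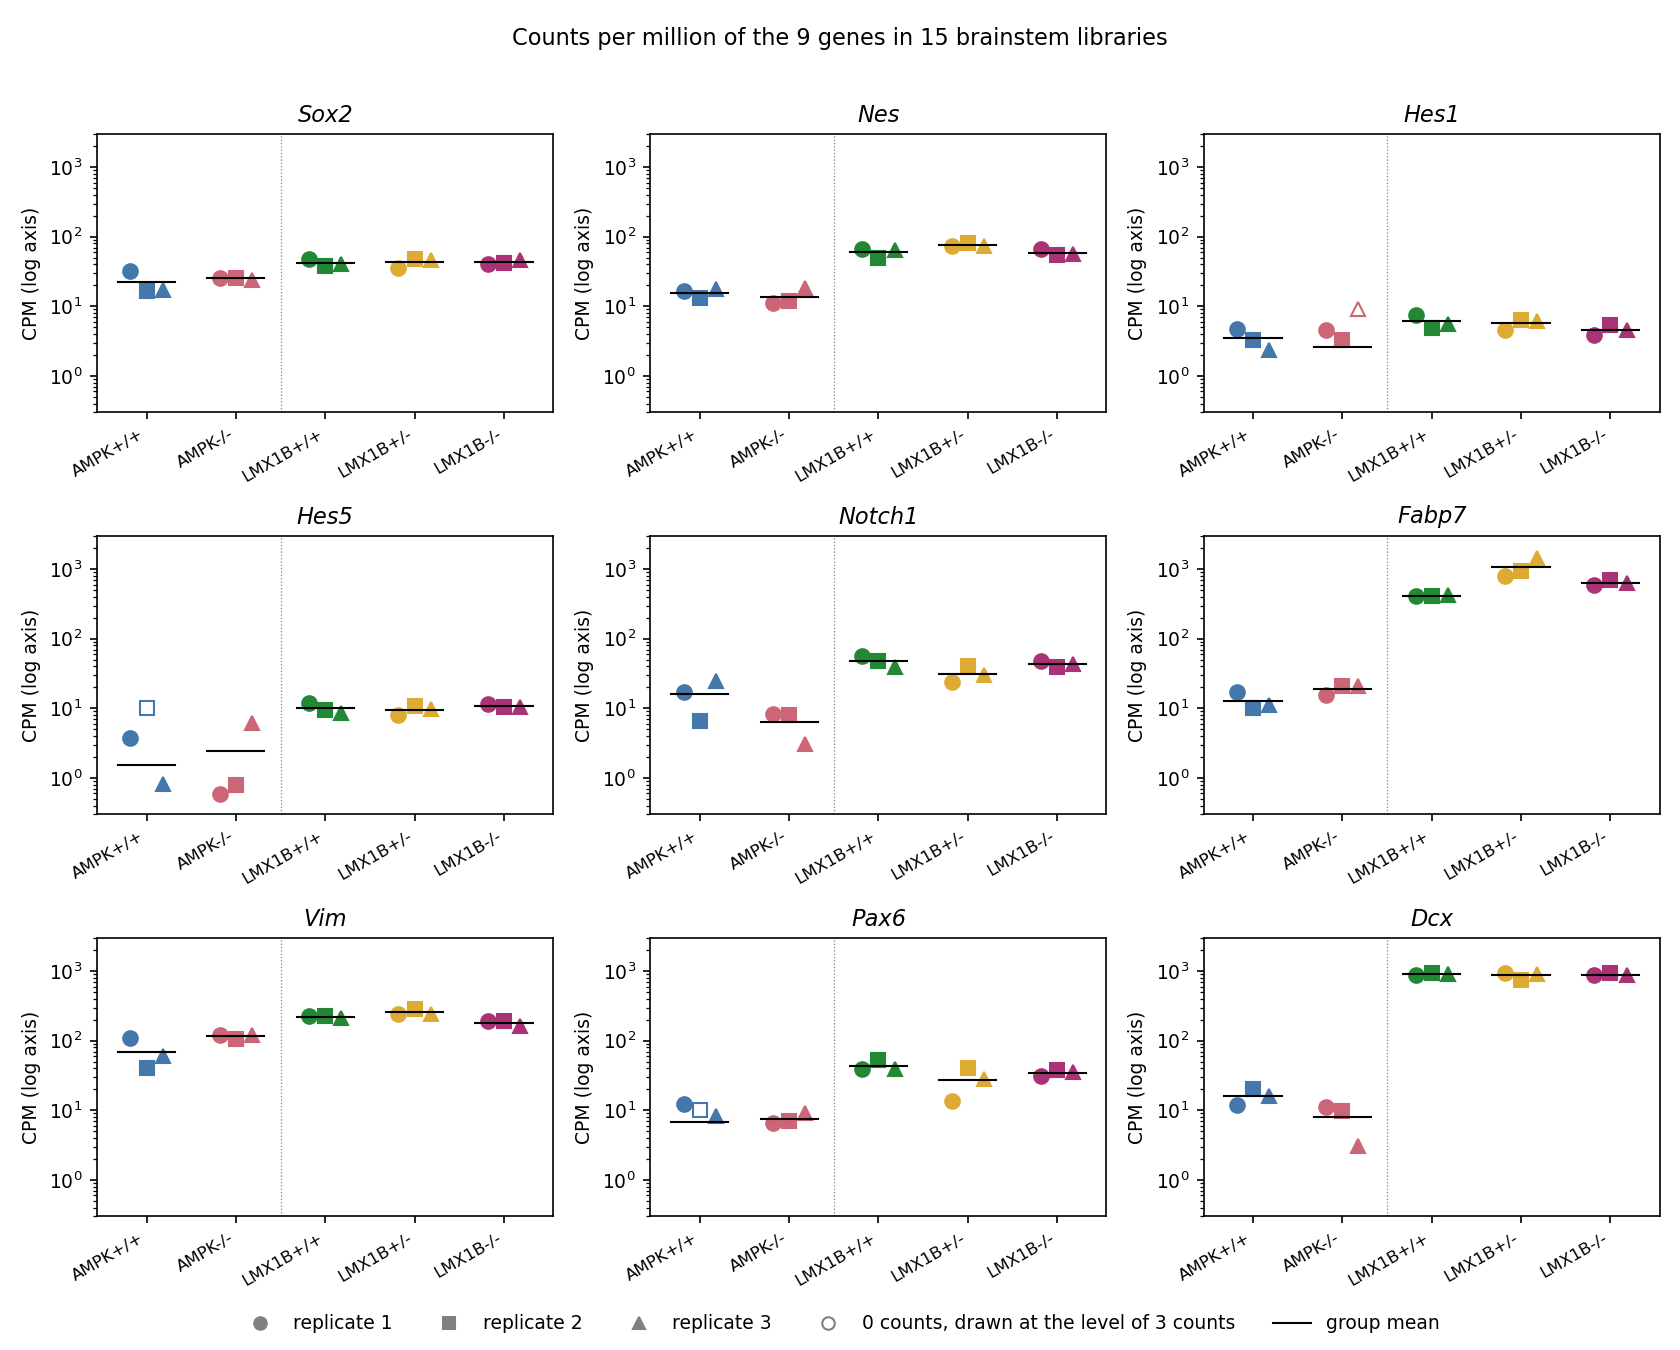
Level of each of the 9 genes (CPM, log axis) in every library, by genotype, with symbols for replicates 1 to 3, a line at the mean of each group of 3, and open symbols at the level of 3 counts for libraries with 0 counts. Dcx and Fabp7 were far higher in the 9 LMX1B libraries (736 to 952 and 407 to 1446 CPM) than in the 6 AMPK libraries (3.02 to 20.0 and 9.98 to 21.2 CPM), and Fabp7 was highest in the 3 LMX1B+/- libraries.

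Set per length of transcript, the members differed widely from one another. Levels are compared between genes on the authors' RPKM scale, which divides counts by gene length and library total and on which a long gene such as Notch1 (14232 bases) can be set beside a short one such as Fabp7 (1250 bases). In LMX1B+/+, Fabp7 averaged 357 ± 61.3 RPKM (SD, n = 3) and Dcx 77.8 ± 11.7 RPKM, followed by Vim at 49.9 ± 5.32 RPKM and Sox2 at 21.9 ± 3.04 RPKM. Nes at 9.98 ± 2.31 RPKM and Hes5 at 7.78 ± 0.838 RPKM came next. Their ranges overlapped, and Nes was above Hes5 within each LMX1B+/+ library. Pax6, Notch1 and Hes1 were lowest, at 3.93 ± 0.671, 3.53 ± 0.247 and 3.15 ± 0.625 RPKM, and these 3 did not differ from each other beyond their spread. Fabp7 was the highest of the 9 in all 9 LMX1B libraries.
In the 6 AMPK libraries the order was another one: Vim ranked first in each, at 8.69 to 25.1 RPKM, and Dcx lay at 0.235 to 1.63 RPKM. Sox2 (8.35 to 15.9 RPKM) and Fabp7 (8.24 to 16.7 RPKM) overlapped there. Among the 9, the abundant transcripts of these libraries were thus those of Vim, Sox2 and Fabp7, and not that of the young-neuron gene. Which cells held them was not tested.

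The wild-type libraries of the experiments were set on 1 scale to ask how far the progenitor genes differed between them. The fitted change was negative in AMPK+/+ for all 9, and 8 passed the test (88.9%), against 25.0% of the 19679 genes tested that were called lower, 24.3% called higher and 49.3% called in either direction. The groups did not overlap in 52.2% of all genes and in 7 members (77.8%), 1 of which, Hes5, counts only through a library with 0 counts. The young-neuron gene and the radial glia lipid carrier moved most. Dcx was at 14.0, 21.3 and 18.8 CPM in AMPK+/+ 1 to 3 and at 864, 936 and 911 CPM in LMX1B+/+ 1 to 3, on the joint scale. It was 54.1-fold lower (log2 fold change -5.76, SE 0.23, edgeR quasi-likelihood test with Benjamini-Hochberg adjustment, adjusted p = 2.89e-11). Fabp7 was at 20.2, 10.6 and 13.0 CPM in AMPK+/+ and at 397, 406 and 425 CPM in LMX1B+/+, a 25.2-fold lower level (log2 fold change -4.65, SE 0.23, edgeR adjusted p = 1.57e-10). The groups stood far apart in both genes. In LMX1B+/+ the SD was 4.03% of the mean for Dcx and 3.46% for Fabp7, and in AMPK+/+ it was 20.6% and 34.1%. The values of AMPK+/+ 2 came from 6 and 3 counts.

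Among the Notch genes, the receptor and its target Hes5 were lower, whereas Hes1 did not pass. Hes5 was at 4.45, 0 and 0.959 CPM in AMPK+/+ and at 11.8, 9.23 and 8.52 CPM in LMX1B+/+ on the joint scale. The 0 stands in the shallow library AMPK+/+ 2, where 3 counts would be 10.6 CPM, so this library cannot place Hes5 above or below LMX1B+/+. The log2 fold change of Hes5 was -1.92 (SE 0.42, edgeR adjusted p = 0.00112). Notch1 was at 20.4, 7.09 and 28.5 CPM beside 55.0, 47.2 and 38.6 CPM, with a log2 fold change of -1.01 (SE 0.22, edgeR adjusted p = 0.00114) and no overlap. Hes1 was at 5.62, 3.54 and 2.74 CPM beside 7.38, 4.87 and 5.57 CPM, which overlapped (log2 fold change -0.52, 95% interval -1.14 to 0.098, edgeR adjusted p = 0.186). Without AMPK+/+ 1, the change of Hes1 became -1.10 and passed (edgeR adjusted p = 0.0178), and that of Hes5 became -3.39; without AMPK+/+ 3, that of Hes5 was -1.20.

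The filament genes and the transcription factors lay between these extremes. Nes was at 19.5, 14.2 and 20.5 CPM beside 65.0, 48.3 and 62.6 CPM (log2 fold change -1.58, SE 0.18, edgeR adjusted p = 2.48e-06). Vim was at 129, 42.5 and 71.9 CPM beside 220.1, 224 and 211 CPM, and its spread in AMPK+/+ was the widest of the 9 in absolute terms (log2 fold change -1.26, SE 0.24, edgeR adjusted p = 0.000304). Both filament genes were without overlap. Pax6 was at 14.4, 0 and 9.59 CPM beside 37.7, 51.6 and 38.3 CPM (log2 fold change -1.90, SE 0.26, edgeR adjusted p = 1.34e-05). Sox2 changed least of those that passed: 38.3, 17.7 and 20.1 CPM beside 46.0, 37.9 and 40.6 CPM, groups that overlapped (log2 fold change -0.55, SE 0.22, edgeR adjusted p = 0.0494). The Sox2 call was lost without AMPK+/+ 2 or 3 or without LMX1B+/+ 1 or 3, with log2 fold changes of -0.51, -0.20, -0.49 and -0.58.
The age of the mice, the experiment, the dissection and the sequencing run cannot be told apart in this comparison. The labels give no age. The study's methods name postnatal days 1 to 5 for its mice, whereas Mbp, the gene of myelin basic protein, was at 6801 to 11802 CPM in AMPK+/+ and the proliferation gene Mki67 at 0 to 3.33 CPM, so the libraries are named here by genotype and not by age. In bulk tissue, fewer cells of a type and less RNA per cell cannot be told apart either.

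**Figure D2:**
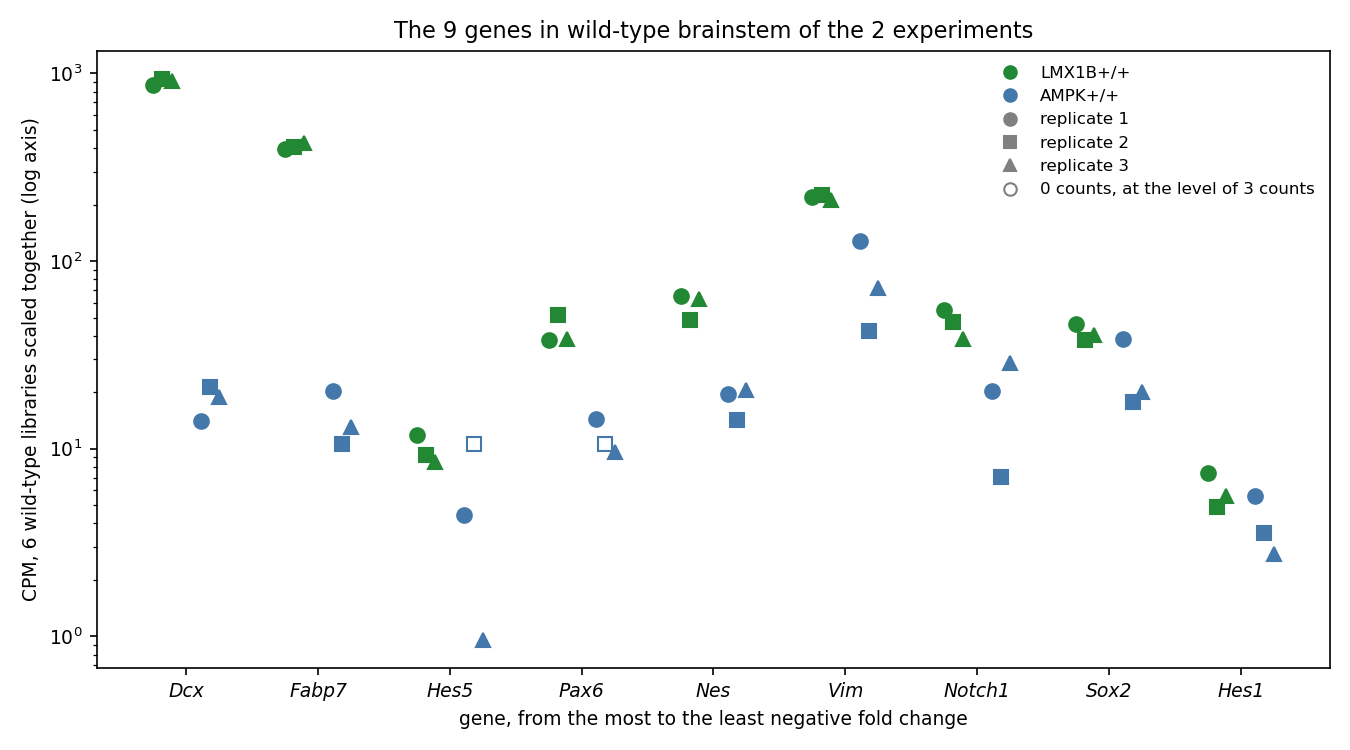
CPM (log axis) of the 9 genes in the 3 LMX1B+/+ and 3 AMPK+/+ libraries scaled together, ordered from the most to the least negative log2 fold change, with open symbols for 0 counts drawn at the level of 3 counts. Dcx and Fabp7 stood apart by more than the rest, whereas Sox2 and Hes1 overlapped between the groups, as did Hes5 with its 0 counts drawn at 10.6 CPM.

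Within the second experiment, LMX1B+/- was set against LMX1B+/+ to ask which members differed in the libraries labelled as having 1 copy. Fabp7 rose 2.56-fold, Nes rose 1.27-fold and Notch1 was 1.51-fold lower, whereas Sox2, Hes1, Hes5 and Dcx lay within 0.09 log2 units of no change. These 3 of 9 (33.3%) stand against 36.7% of all 21729 genes tested (19.4% higher and 17.3% lower), so the share called was near the background. The groups did not overlap in 3 members (Fabp7, Nes and Vim) and in 45.3% of all genes. Fabp7 was at 407, 412 and 431 CPM in LMX1B+/+ and at 798, 950.3 and 1446 CPM in LMX1B+/-. All LMX1B+/- libraries were above all LMX1B+/+ libraries, and LMX1B+/- 3 was highest. The log2 fold change was 1.35 (95% interval 1.00 to 1.71, edgeR quasi-likelihood test with Benjamini-Hochberg adjustment, adjusted p = 0.000114), and it passed under each of the other 12 settings and with each of the 9 libraries left out.

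Nes and Notch1 were less firm. Nes was at 66.5, 49.0 and 63.6 CPM in LMX1B+/+ and at 73.6, 80.7 and 72.7 CPM in LMX1B+/-, again without overlap (log2 fold change 0.34, SE 0.12, edgeR adjusted p = 0.0393). Its call held in 3 of the 9 fits with a library left out, and was lost without LMX1B+/+ 2 (log2 fold change 0.22), without any 1 of the LMX1B+/- libraries (0.31 to 0.37), and without LMX1B-/- 2 or 3 (0.34). By library size alone, the change of Nes was 0.10 (edgeR adjusted p = 0.676). Notch1 was at 56.3, 47.9 and 39.1 CPM in LMX1B+/+ and at 23.7, 40.8 and 30.2 CPM in LMX1B+/-, where LMX1B+/- 2 overlapped with LMX1B+/+ 3. The log2 fold change of Notch1 was -0.60 (SE 0.18, edgeR adjusted p = 0.0176). Without LMX1B+/+ 1, LMX1B+/- 1 or LMX1B+/- 3 it was -0.46, -0.44 and -0.56 and did not pass. When the trend with gene length was removed from each library, Notch1, the longest of the 9, changed by -0.26 (edgeR adjusted p = 0.277), and with the length and GC trends both removed by -0.048 (edgeR adjusted p = 0.838).

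The remaining members did not pass. Vim was at 241, 286 and 245 CPM in LMX1B+/- and at 225, 227 and 214 CPM in LMX1B+/+, which did not overlap (log2 fold change 0.21, 95% interval 0.0038 to 0.42, edgeR adjusted p = 0.136), and the sign turned by library size alone (-0.017), whereas it passed with the length trend removed (0.32, edgeR adjusted p = 0.0342). Pax6 spread most among LMX1B+/- libraries, at 13.5, 40.9 and 28.0 CPM, against 38.7, 52.5 and 38.8 CPM in LMX1B+/+ (log2 fold change -0.65, 95% interval -1.19 to -0.12, edgeR adjusted p = 0.0787). Its highest LMX1B+/- library was 3.02-fold above its lowest. Pax6 passed in 5 of the 12 other settings, among them library size alone (-0.85, edgeR adjusted p = 0.0134) and no filter (-0.65, edgeR adjusted p = 2.71e-06). Without LMX1B+/- 2, Pax6 changed by -1.03 and passed (edgeR adjusted p = 0.00611); without LMX1B+/- 1 or LMX1B+/+ 2 the change was -0.34 and -0.49. The intervals of the log2 fold change were -0.22 to 0.26 for Sox2, -0.47 to 0.31 for Hes1, -0.38 to 0.23 for Hes5 and -0.33 to 0.16 for Dcx. Hes5 and Hes1, read out as Notch targets, thus had intervals on both sides of 0, and Dcx stayed at 736 to 950.4 CPM beside 885 to 952 CPM.
Nothing in the labels says that the libraries came from separate animals, so p-values measure the spread between these libraries.

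**Figure D3:**
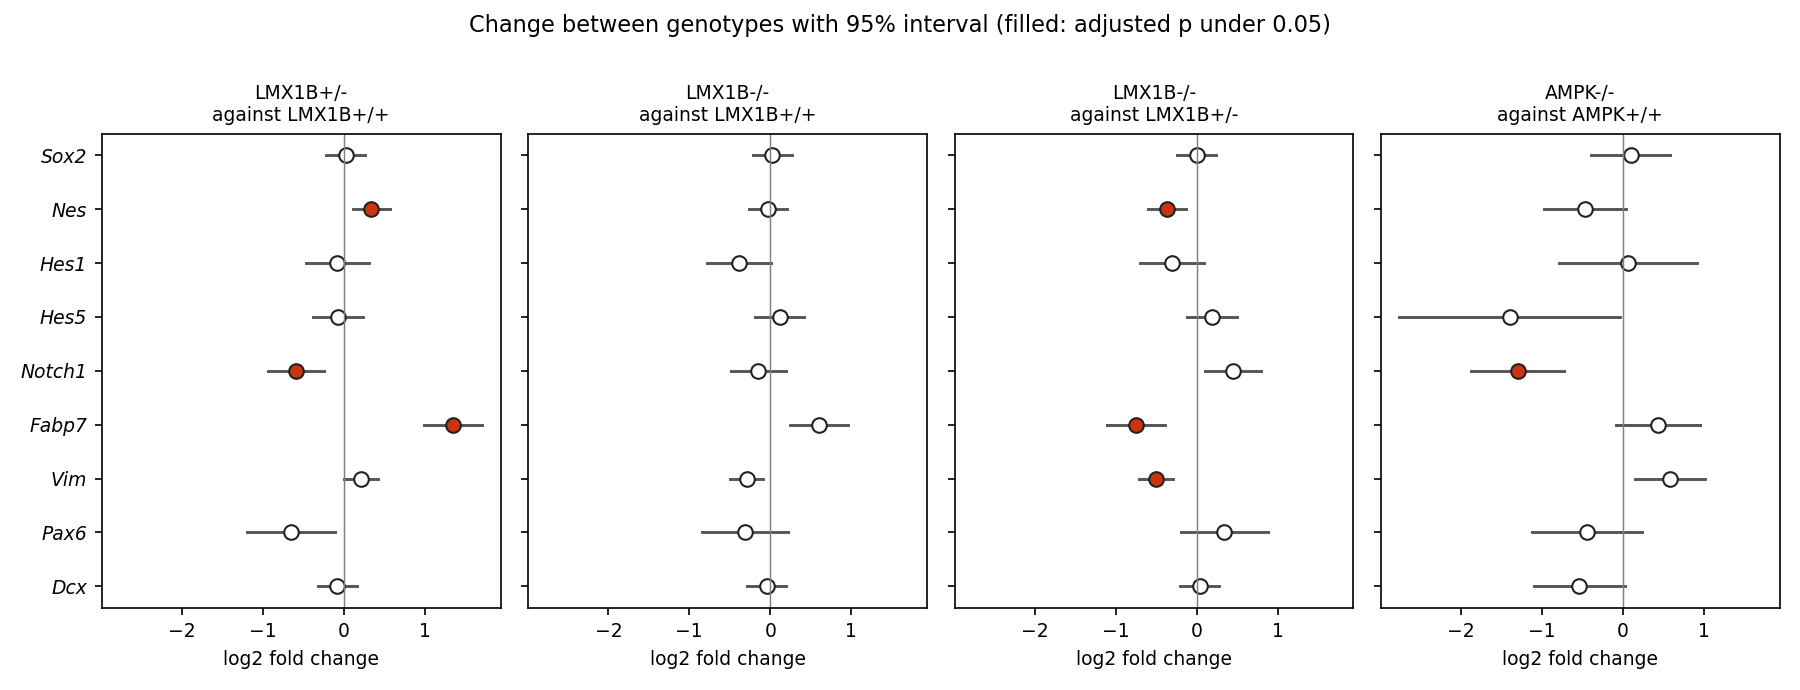
Log2 fold change (points) with 95% interval (lines) of each member in the genotype comparisons, filled where the Benjamini-Hochberg adjusted p of edgeR's quasi-likelihood test was under 0.05. Fabp7 at 1.35 in LMX1B+/- against LMX1B+/+ lies farthest above 0, no member is filled in LMX1B-/- against LMX1B+/+, and Notch1 is the filled member of the AMPK panel.

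In LMX1B-/-, where Lmx1b itself was 14.1-fold lower, no member passed. Against LMX1B+/+, 0 of the 9 passed edgeR's quasi-likelihood test, as did 0.0184% of all genes tested; 2 had an unadjusted p under 0.05, as did 8.09% of all genes, and DESeq2 and limma called 0. Fabp7 was at 584, 691 and 624 CPM in LMX1B-/-, above all LMX1B+/+ libraries and below all LMX1B+/- libraries (log2 fold change against LMX1B+/+ 0.60, 95% interval 0.25 to 0.96, edgeR adjusted p = 0.532). With no filter on low counts it passed, at 0.59 (edgeR adjusted p = 0.00302). Vim was at 192, 189.8 and 163 CPM, below all LMX1B+/+ libraries (log2 fold change -0.29, 95% interval -0.50 to -0.084, edgeR adjusted p = 0.544). Pax6, at 31.2, 38.0 and 35.4 CPM, also lay just below LMX1B+/+ without overlap, and the 3 of 9 members that did not overlap (33.3%) stand against 18% of all genes. Of 8 genes of the meninges, 7 had a fitted change below 0 in LMX1B-/-, as had 8 of 9 vascular genes and 10410 of all 21729 genes tested. In these lists 0 genes were called, and 3 and 6 had an unadjusted p under 0.05. Their part in the values of Vim was not tested.
The other members were close to LMX1B+/+. Notch1 was at 47.5, 39.4 and 42.6 CPM (log2 fold change -0.15, interval -0.49 to 0.20), Nes at 65.6, 54.9 and 55.8 CPM (-0.025, interval -0.26 to 0.21) and Dcx at 870.3, 931 and 873 CPM (-0.046, interval -0.29 to 0.20). Sox2 was at 40.7, 42.2 and 45.8 CPM (interval -0.22 to 0.26). Hes5 was at 11.6, 10.6 and 10.4 CPM beside 12.1, 9.39 and 8.65 CPM (interval -0.19 to 0.42), and Hes1 at 3.91, 5.38 and 4.61 CPM beside 7.56, 4.95 and 5.66 CPM (log2 fold change -0.38, interval -0.78 to 0.0089). A change of more than 0.30 log2 units in either direction lay outside the nominal intervals of Sox2 and Nes. That of Dcx came close to it, at -0.29, and all these intervals are narrower than edgeR's test implies.

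LMX1B-/- and LMX1B+/- were then compared with each other, and shared the libraries of the comparisons above. Fabp7, Vim and Nes were lower in LMX1B-/-, 3 of 9 members (33.3%), where 14.0% of all genes were called lower 11.5% higher and 25.5% in either direction. Fabp7 fell by 0.75 on the log2 scale (SE 0.18, edgeR quasi-likelihood test with Benjamini-Hochberg adjustment, adjusted p = 0.00859), Vim by 0.50 (SE 0.11, adjusted p = 0.00399) and Nes by 0.37 (SE 0.12, adjusted p = 0.0389). None of the 3 overlapped between the genotypes, which was so for 42.4% of all genes. Fabp7 and Vim passed with each of the 9 libraries left out, whereas Nes passed in 4 of the 9 and lost its call without any 1 LMX1B+/- library (-0.39 to -0.37) or without LMX1B-/- 2 or 3 (-0.32 and -0.33). Over the 12 other settings, Fabp7 passed in 8, down to -0.35 with the length and GC trends removed (edgeR adjusted p = 0.122), and Vim and Nes in 9 each, with changes of -0.31 and -0.17 by library size alone (edgeR adjusted p = 0.176 and 0.511). Leaving out LMX1B+/- 3 brought the change of Fabp7 to -0.47 (edgeR adjusted p = 0.0227). Notch1 was higher in LMX1B-/- by 0.45 log2 units, which did not pass (SE 0.18, edgeR adjusted p = 0.0780). Without LMX1B+/- 2 it was 0.63 and passed (edgeR adjusted p = 0.0123).

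Other features of the LMX1B+/- libraries moved alongside these members, and their part in the results was not tested. All 7 erythroid genes were higher in LMX1B+/- than in LMX1B+/+, with a summed level of 3551 to 7516 CPM beside 510 to 1251 CPM in LMX1B+/+ and 1061 to 2383 CPM in LMX1B-/-. Mitochondrially encoded genes took 9.58% to 14.7% of counts in LMX1B+/-, 5.57% to 6.74% in LMX1B+/+ and 7.23% to 7.98% in LMX1B-/-. Of the oligodendrocyte lineage genes, 8 of 9 were lower in LMX1B+/- (summed 257 to 322 CPM beside 379 to 438 CPM), and of the astrocyte genes, some of which radial glia also express, 6 of 10 were lower (798 to 887 CPM beside 1050 to 1426 CPM). Fabp7 and Nes thus went up where Agt and Gfap, genes of astrocytes, went down by 2.60 and 1.33 on the log2 scale. Genes of vascular cells, which use Notch receptors as well, summed to 251 to 266 CPM in LMX1B+/- and 274 to 336 CPM in LMX1B+/+, and in LMX1B-/-, where Notch1 was at 39.4 to 47.5 CPM, to 252 to 265 CPM. Of the 10 hindbrain Hox genes, 5 were higher in LMX1B+/- and 0 lower, with a summed level of 668, 328 and 241 CPM in LMX1B+/- 1 to 3 beside 146 to 308 CPM in LMX1B+/+. The cerebellar list, a neighbouring tissue in which Pax6 marks granule cells, summed to 295 to 386 CPM in LMX1B+/-, 307 to 363 CPM in LMX1B-/- and 395 to 496 CPM in LMX1B+/+.

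In the first experiment, AMPK-/- was set against AMPK+/+. Notch1 was the 1 member called (11.1%), and 8.94% of the 17397 genes tested were (3.77% higher and 5.17% lower). It was at 17.2, 6.66 and 24.3 CPM in AMPK+/+ 1 to 3 and at 8.26, 8.03 and 3.02 CPM in AMPK-/- 1 to 3. The deeper AMPK+/+ libraries lay above all of AMPK-/-, and AMPK+/+ 2, from 2 counts, lay among them. The log2 fold change was -1.30 (SE 0.29, 95% interval -1.88 to -0.73, edgeR quasi-likelihood test with Benjamini-Hochberg adjustment, adjusted p = 0.00829), a 2.46-fold lower level. Mitochondrially encoded genes took 20.0% to 21.7% of counts in AMPK-/- and 10.4% to 13.9% in AMPK+/+, without overlap, and their part in this and the other AMPK results was not tested. Without AMPK+/+ 3 it was -0.97 (edgeR adjusted p = 0.0891), without both shallow libraries -1.34 (edgeR adjusted p = 0.123), and with the length and GC trends both removed -0.71 (edgeR adjusted p = 0.179). AMPK+/+ 3 also held the highest summed level of skeletal muscle genes, 574 CPM beside 5.15 to 14.3 CPM in the other 5 AMPK libraries, and its part in the Notch1 result was not tested beyond leaving it out. Of 6 cerebellar genes tested, 1 was called lower in AMPK-/- and 1 higher, and of 8 mature neuron genes 3 were lower and 1 higher. The summed levels overlapped, at 116 to 159 and 3260 to 4041 CPM in AMPK+/+ beside 130 to 207 and 3862 to 4238 CPM in AMPK-/-. The part of these lists in the AMPK results was not tested.

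The other members did not pass between the AMPK genotypes. Vim was at 108, 39.9 and 61.2 CPM in AMPK+/+ and at 122, 107 and 121 CPM in AMPK-/-, with an overlap through AMPK+/+ 1 (log2 fold change 0.58, 95% interval 0.15 to 1.01, edgeR adjusted p = 0.10). Without AMPK+/+ 1 the change of Vim was 1.02 and passed (edgeR adjusted p = 0.000144), and without AMPK-/- 2 it was 0.66 and passed (edgeR adjusted p = 0.0445). Of 7 genes of the meninges, a tissue that makes vimentin, 2 were higher in AMPK-/-, and the summed level of the list was 67.9 to 213 CPM in AMPK+/+ and 123 to 223 CPM in AMPK-/-. Of 3 choroid plexus genes tested, 2 were higher in AMPK-/-, and that list summed to 31.4 to 127 CPM in AMPK-/- and 4.08 to 12.5 CPM in AMPK+/+. Their part in the values of Vim was not tested. Dcx was at 11.8, 20.0 and 16.0 CPM beside 11.0, 9.78 and 3.02 CPM, the last from 1 count, and was the 1 member without overlap, where 26.6% of all genes had none (log2 fold change -0.54, edgeR adjusted p = 0.254). Fabp7 was at 17.1, 9.98 and 11.1 CPM beside 15.7, 20.7 and 21.2 CPM (log2 fold change 0.43, 95% interval -0.090 to 0.95). The young-neuron gene and the lipid carrier thus had fitted changes of opposite sign, neither past the threshold.
Sox2 was at 32.3, 16.6 and 17.1 CPM beside 25.8, 25.7 and 24.2 CPM (interval -0.39 to 0.59), and Nes at 16.5, 13.3 and 17.5 CPM beside 11.3, 11.7 and 18.1 CPM (interval -0.98 to 0.037). Hes1, Hes5 and Pax6 were near the limit of the shallow libraries. Hes5 was at 3.75, 0 and 0.817 CPM beside 0.595, 0.777 and 6.04 CPM, the last from 2 counts. Its fitted log2 fold change of -1.40 (SE 0.70, edgeR adjusted p = 0.217) rested on AMPK+/+ 1 and was 0.11 without it. Hes1 was at 4.74, 3.33 and 2.33 CPM beside 4.49, 3.24 and 0 CPM (interval -0.79 to 0.92), and Pax6 at 12.1, 0 and 8.17 CPM beside 6.47, 7.13 and 9.07 CPM (interval -1.12 to 0.23).

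The called differences of Fabp7, Nes and Notch1 were set side by side under each way of processing, because they answered it differently. Fabp7 stayed between 0.81 and 1.52 in LMX1B+/- against LMX1B+/+ over the settings and libraries left out. Nes ranged from 0.099 to 0.69, and Notch1 from -0.82 to -0.048. In the AMPK comparison Notch1 ranged from -1.49 to -0.58.

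**Figure D4:**
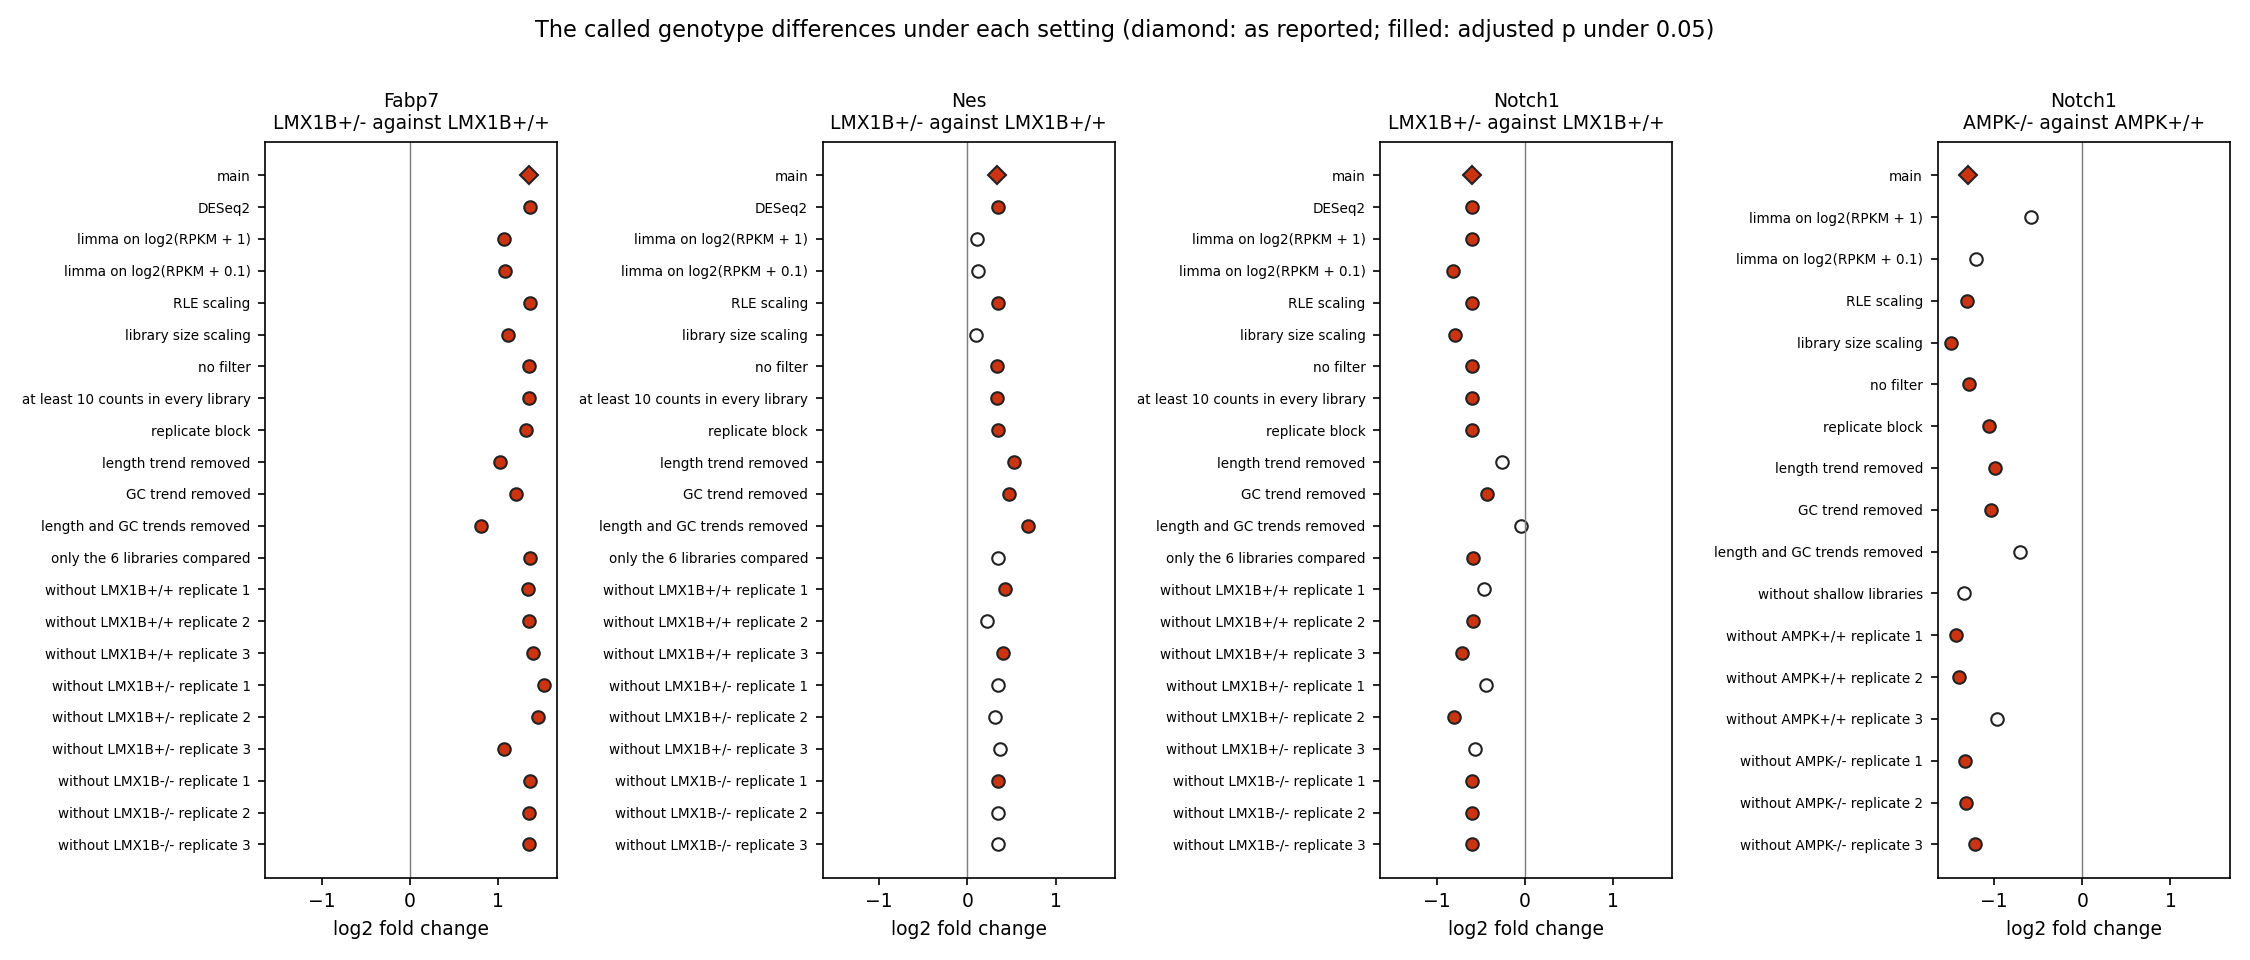
Log2 fold change (x axis) of Fabp7, Nes and Notch1 in LMX1B+/- against LMX1B+/+ and of Notch1 in AMPK-/- against AMPK+/+ under each setting that gave a tested value, with the reported value as a diamond and filled symbols for adjusted p under 0.05. Fabp7 is filled throughout, whereas Notch1 moves toward 0 when trends with gene length and GC content are removed.

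The rest of the Notch pathway was read from 31 further genes that had been listed by role. In LMX1B+/- against LMX1B+/+, 10 of the 31 passed, 9 lower and 1 higher, with a median log2 fold change of -0.30 beside -0.031 over all genes; the share called lies near the 36.7% of all genes. Among the ligands, Jag2 was at 53.6, 38.8 and 45.6 CPM in LMX1B+/+ and at 26.9, 30.7 and 20.4 CPM in LMX1B+/- (log2 fold change -0.82, edgeR quasi-likelihood test with Benjamini-Hochberg adjustment, adjusted p = 0.00128). Dll4, a ligand of blood vessels, changed by -0.77. Of the receptors, Notch3, which is known from vascular mural cells and progenitors, changed by -0.70 (27.8 against 45.2 CPM on average). Psenen, a γ-secretase subunit, was the 1 that rose, by 0.63, whereas Psen2, a catalytic subunit of the same protease, fell by 0.39. Numbl, a Notch antagonist, and Pofut1, which adds fucose to the receptor, fell by 0.58 and 0.52. The nuclear partners (4 genes) and the further targets (4 genes) gave 0 calls each by edgeR, with 1 and 0 genes at an unadjusted p under 0.05, where 46.1% of all genes were.
In LMX1B-/- against LMX1B+/+, 0 of the 31 passed edgeR's test, where 0.0184% of all genes did, and 3 had an unadjusted p under 0.05, where 8.09% did. The median was -0.11 beside 0.010 over all genes. Against LMX1B+/-, where 25.5% of all genes were called, 5 of the 31 were higher in LMX1B-/-, led by Jag2 (0.57), Notch3 (0.51), Pofut1 (0.41) and Mib1 (0.38), an E3 ligase that activates ligands, and 2 were lower, Psenen (-0.65) and the non-canonical ligand Dlk1 (-0.66).
In AMPK-/- against AMPK+/+, Notch3 was the 1 of 31 called, at 11.7, 16.6 and 17.6 CPM in AMPK+/+ and 4.95, 6.35 and 9.07 CPM in AMPK-/- (log2 fold change -1.35, SE 0.30, edgeR adjusted p = 0.00803). The genotypes did not overlap in Notch3, where 26.6% of all genes had no overlap, and its 9.07 CPM in AMPK-/- 3 is the level of 3 counts there. The other settings were read for the members only, so none is given for Notch3. The median of the 31 was -0.24 beside -0.0056 over all genes. Of the 31, 23 were below 0, where 8778 of all 17397 genes tested were, and 8.94% of all genes were called.
Between the wild-type libraries, 18 of the 31 passed, 12 lower and 6 higher in AMPK+/+, where 49.3% of all genes were called, with a median of -0.31 beside -0.031 over all genes. All 5 ligands were lower, among them Dll3 (6.03-fold) and Jag2 (2.06-fold). Notch3 (log2 fold change -1.36), the Mastermind genes Maml3 (-1.50) and Maml1 (-0.80), the modulators Numbl (-1.35) and Rfng (-0.85), and the feedback inhibitor Nrarp (-1.81) were lower too. Psen2 (0.70), Psenen (0.64), Numb (0.81), Dlk1 (0.63) and the target repressors Hey1 (0.72) and Heyl (0.94) were higher. Notch targets thus did not move as 1 group: Hes5 and Nrarp were lower and Hey1 and Heyl higher in the same libraries.

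**Figure D5:**
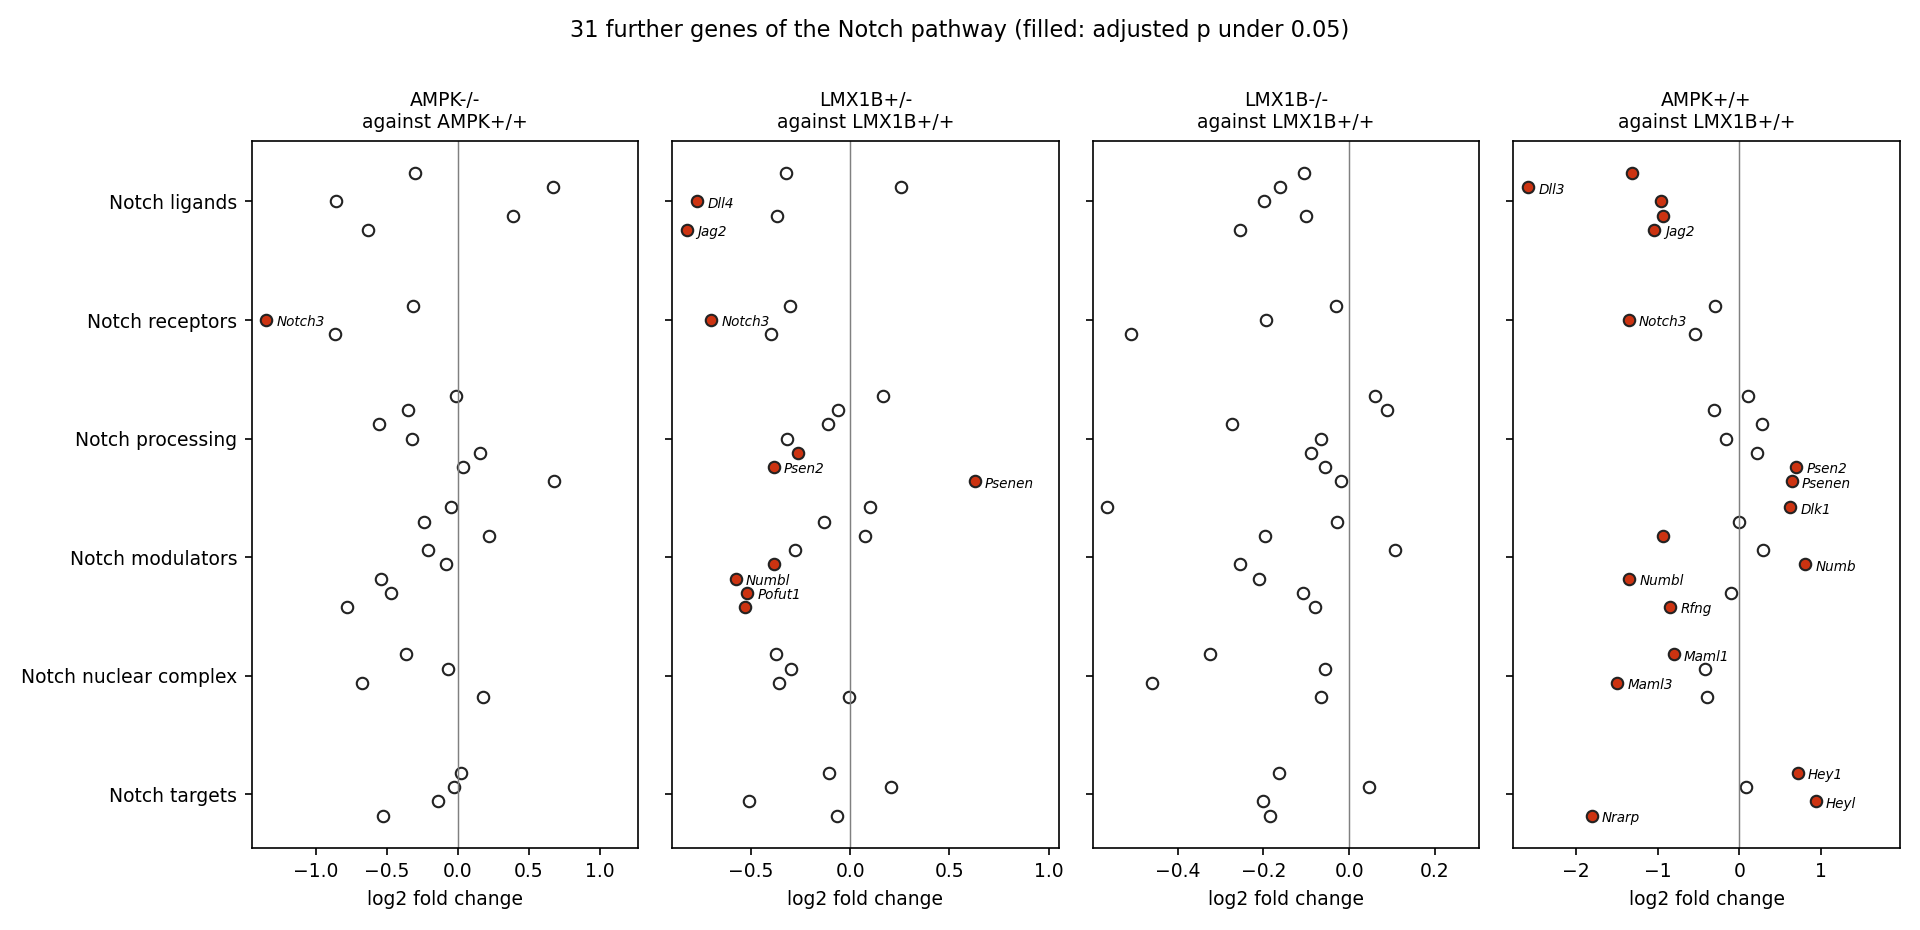
Log2 fold change (x axis, own range in each panel) of 31 Notch pathway genes other than the members, in rows by role, with the genes named in the text written beside their points, filled where edgeR's adjusted p was under 0.05. In LMX1B+/- against LMX1B+/+ 9 of the 10 filled genes lie below 0, in LMX1B-/- against LMX1B+/+ none is filled, and in AMPK+/+ against LMX1B+/+ all 5 ligands lie below 0.

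Further progenitor and young-neuron genes were read beside the members. Of 13 other radial glia genes, 7 passed in LMX1B+/- against LMX1B+/+, 6 of them lower (all genes tested: 36.7% called, 17.3% lower and 19.4% higher, which stands behind each list in this comparison), such as Gli3 (log2 fold change -0.59) and Nr2e1 (-2.36, from 1.11 CPM on average), and 1 higher, Prom1 (0.76). Fabp7 and Nes thus rose where most called radial glia genes were lower. Of 11 proneural genes tested there, 3 were lower, led by Neurod1 (-0.96) and Eomes (-2.01), and 0 higher. Of 12 young-neuron genes, 4 were higher, led by Cd24a (1.38) and Elavl2 (0.71), whereas Dcx had an interval of -0.33 to 0.16. Of 12 cell cycle genes, 3 were higher, among them Pcna (0.85) and Cdk1 (0.75).
In LMX1B-/- against LMX1B+/+, 0 of these 48 tested genes passed edgeR's test, where 0.0184% of all genes did, and 5 had an unadjusted p under 0.05, where 8.09% did. Against LMX1B+/-, 11.5% of all genes were called higher and 14.0% lower. There, 2 of 13 radial glia genes were higher, Ptprz1 (0.67) and Nr2e1 (2.58). Of 12 young-neuron genes, 4 were lower, led by Cd24a (-1.33) and Igfbpl1 (-1.07), and of 12 cell cycle genes, 5 were lower, led by Pcna (-0.71) and Cdk1 (-0.74).
In AMPK-/- against AMPK+/+, 0 of 11 radial glia genes and 0 of 6 cell cycle genes passed edgeR's test (2 and 0 at an unadjusted p under 0.05, where 24.6% of all genes were). The proneural gene Nhlh2 was higher, at 7.80, 3.63 and 9.07 CPM beside 0.988, 0 and 1.75 CPM (log2 fold change 2.13). Its 0 stands in AMPK+/+ 2, where 3 counts would be 9.98 CPM, and its 9.07 CPM in AMPK-/- 3 is the level of 3 counts. Of 11 young-neuron genes, 3 were higher, where 3.77% of all genes were, led by Stmn2 (0.75) and Tubb3 (0.65), while Dcx was not.
Between the wild-type libraries most genes of these lists were lower in AMPK+/+, as were 25.0% of all genes. All 12 young-neuron genes, 9 of 12 radial glia genes, 9 of 11 proneural genes and 11 of 12 cell cycle genes were lower in AMPK+/+, for example Sox11 (44.5-fold), Igfbpl1 (88.6-fold), Tnc (28.3-fold), Sox3 (15.7-fold), Nhlh1 (30.5-fold) and Top2a (56.0-fold). Gadd45g was the 1 proneural gene that was higher (2.23-fold). In the same libraries the oligodendrocyte lineage genes summed to 11364 to 19752 CPM beside 379 to 438 CPM and the astrocyte genes to 4968 to 7148 CPM beside 1050 to 1426 CPM, and all 6 microglial genes were higher. Whether cell make-up, age or experiment set the levels of the 9 members cannot be told apart.

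Over the 9 LMX1B libraries, the level of each member was also compared with that of every tested gene, as a description. These libraries hold all 3 LMX1B genotypes, so the likeness includes the differences between genotypes. Fabp7 was most like Mdh1 and Eif5 (Pearson r of log2 CPM 0.996 and 0.995), Notch1 most like Zfp36l2 and Pml (0.993 and 0.981), and Pax6 most like Fubp3 and Atp12a (0.998 and 0.984). Dcx was most like Ano5 and Rab3b (0.983 and 0.933), Nes most like Hyal2 and Gm15235 (0.973 and 0.969), and Vim most like Sinhcaf and Pimreg (0.966 and 0.953). Sox2 was most like Taf6l and Mid1ip1 (0.948 and 0.947), Hes5 most like Foxo4 and Celsr1 (0.930 and 0.928), and Hes1 most like Eva1c and Duox1 (0.911 and 0.888). Among the members themselves, Notch1 and Pax6 were the most alike (r = 0.82, n = 9 libraries), followed by Hes5 and Notch1 (r = 0.76), and Notch1 and Fabp7 the least (r = -0.66).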

How the data were processed

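Brainstem polyA RNA of 15 mouse libraries was made into directional libraries with molecular indexes and sequenced on an Illumina HiSeq. Per the study's methods and the submitters' processing notes, the authors aligned reads with HISAT2 in systemPipeR (GRCm39). The counter, annotation, and use of strand and indexes are not given in the sources used here. The authors deposited whole-number counts per gene and RPKM values, which are those counts per gene length and library total. R 4.3.3 and edgeR 4.0.16 were used on the counts (filterByExpr, TMM, quasi-likelihood F-test, Benjamini-Hochberg adjustment over all tested genes, threshold 0.05), in fits of 6 AMPK, 9 LMX1B and 6 wild-type libraries. SE is the log2 fold change over the root of F, and intervals are 1.96 SE to each side. They and the limits of 3 counts cover counting error and spread between libraries. The column read as AMPK+/+ 3 has a suffix after its number, and that of LMX1B+/+ 3 carries its library name's number 4. Alternatives used DESeq2 1.42.0, limma 3.58.1 on log2(RPKM + 1 or 0.1), other scalings and filters, a replicate block, trends with length (and, added after seeing the data, GC content of GENCODE vM21 transcripts, lowess span 0.3) and libraries left out. Symbols came from GENCODE vM21. Named genes of a list are the up to 2 called genes of smallest p in each direction, and 1 gene that this names is not reported here. Members and lists were chosen with earlier results of these data known.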

Additional observations from a re-analysis of the deposited data

How the results depend on the processing

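All settings kept the sign of the 9 members between the wild-type libraries, and Fabp7 in LMX1B+/- against LMX1B+/+ passed throughout; other calls moved, and where no cause is given it was not tested. In AMPK-/- against AMPK+/+ (1 member called), 0 members were called by DESeq2 (which gave Notch1 no adjusted p), by limma with either pseudocount, with at least 10 counts in every library (1 member left), with the length and GC trends removed, or without the shallow libraries, 2 with no filter (Notch1 and Vim), and 0 to 2 with 1 library left out (0 without AMPK+/+ 3, 2 without AMPK+/+ 1 or AMPK-/- 2). Leaving out 1 library gave 1 to 3 calls in LMX1B+/- against LMX1B+/+ (1 without LMX1B+/- 1 or LMX1B+/- 3), 0 in each fit of LMX1B-/- against LMX1B+/+, 2 to 3 in LMX1B-/- against LMX1B+/- and 7 to 9 between the wild types. No filter called 1 in LMX1B-/- against LMX1B+/+, limma with pseudocounts of 1 and 0.1 called 0 and 1 in LMX1B-/- against LMX1B+/-, and the filter of 10 counts left and called 1 between the wild types.

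The replicate numbers did not pair the libraries throughout. Deviations from group means correlated at -0.121 to 0.0476 between same-numbered and -0.0962 to 0.123 between differently numbered AMPK libraries. For LMX1B+/- with LMX1B-/- these ranges were -0.177 to -0.133 and -0.116 to 0.237. For LMX1B+/+ with LMX1B+/- they were -0.157 to -0.0526 and -0.0601 to 0.122. For LMX1B+/+ with LMX1B-/- they were 0.0758 to 0.148 and -0.0952 to -0.0100, without overlap. LMX1B+/- 1, 2 and 3 correlated at 0.237, 0.232 and 0.215 with LMX1B-/- 3, 1 and 2. A grouping across numbers was not modelled. With the replicate block, 2 members were called in AMPK-/- against AMPK+/+ (Notch1 and Vim), 4 in LMX1B+/- against LMX1B+/+ (Pax6 added), 0 in LMX1B-/- against LMX1B+/+, 3 in LMX1B-/- against LMX1B+/- and 8 between the wild types. The block turned Hes1 and Sox2 in AMPK-/- against AMPK+/+ to -0.19 and -0.0024.

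Signs turned only for members that had not passed. Scaling by library size brought the median log2 fold change of all genes to -0.18 (AMPK), -0.27 (LMX1B+/- against LMX1B+/+), 0.22 (LMX1B-/- against LMX1B+/-) and -0.30 (wild types). In AMPK-/- against AMPK+/+, Hes1 turned to -0.10 and Sox2 to -0.062 by library size, to -0.061 and -0.039 without the length trend, and to -0.064 and -0.052 without both trends, where Fabp7 was -0.068. With limma at pseudocounts 1 and 0.1, Hes1 was -0.48 and -1.38, Hes5 0.29 and 0.90, and Pax6 0.067 and 0.61. Libraries left out gave -0.30 to 0.61 for Hes1, -2.01 to 0.11 for Hes5 and -0.19 to 0.58 for Sox2. In LMX1B+/- against LMX1B+/+, Sox2 and Vim turned to -0.21 and -0.026 with limma at pseudocount 1, -0.22 and -0.027 at 0.1, and -0.21 and -0.017 by library size; Dcx and Sox2 turned to 0.24 and -0.12 without the length trend, Hes5 to 0.21 without the GC trend, and Sox2 to -0.085 without both. Libraries left out gave -0.15 to 0.046 for Dcx, -0.20 to 0.11 for Hes1, -0.16 to 0.082 for Hes5 and -0.039 to 0.14 for Sox2. In LMX1B-/- against LMX1B+/+, Sox2 was -0.0038 and -0.0036 with limma, -0.012 by library size, -0.014 without the length trend and -0.0046 with the 6 libraries alone, and Nes 0.026 without the GC trend and 0.059 without both. Libraries left out gave -0.013 to 0.27 for Hes5, -0.15 to 0.060 for Nes and -0.039 to 0.11 for Sox2. In LMX1B-/- against LMX1B+/-, Sox2 was -0.0092 with DESeq2, -0.011 with RLE scaling, -0.0091 with no filter and -0.0048 without the GC trend, and Dcx -0.25 without the length trend and -0.082 without both. Libraries left out gave -0.12 to 0.089 for Dcx and -0.13 to 0.057 for Sox2. Depth limits the members in AMPK+/+ 2 and AMPK-/- 3: Notch1 had 2 and 1 counts there, and all members but Vim (12 and 40) had 0 to 8.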
